A study of Mus musculus with 52 samples.

Results

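A set of 9 genes of microglia and of the complement system, C1qa, C1qb, C1qc, C3, Cx3cr1, P2ry12, Tmem119, Csf1r and Fcgr3, is described here across 3 brain regions and 3 infusions. They were taken by symbol from the 46071 genes of the count table, and each of the 9 matched a single row. The 52 libraries came from 3-month-old male C57BL/6J mice, an inbred strain, that had received an infusion for 3 h while blood glucose was held by infused glucose. The infusion was saline, called basal by the submitters, insulin at 4 mU/kg/min, the low rate, or insulin at 12 mU/kg/min, the high rate. The hypothalamus gave 5 saline, 6 low-rate and 5 high-rate libraries, and the hippocampus and the nucleus accumbens gave 6 libraries for each infusion. Whole pieces of tissue were sequenced, so fewer cells of a type and less RNA per cell cannot be told apart. The labels tie no library to a named animal, so p-values reflect only how far these libraries spread, which may be technical.

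Microglia are the resident macrophages of the brain. They survive on signals through the receptor encoded by Csf1r, whose ligands are Csf1 and Il34, sense neurons through Cx3cr1, the receptor of the neuronal chemokine Cx3cl1, and extend processes towards released nucleotides through P2ry12. Tmem119 encodes a surface protein widely used to tell microglia from other macrophages, and Fcgr3 encodes a receptor for antibody. C1qa, C1qb and C1qc encode the chains of C1q, which starts the classical complement pathway and which microglia make in the healthy brain. C3, the central component on which all complement pathways converge, is made by several cell types, among them astrocytes, macrophages and epithelia.

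The C1q chain genes lie side by side on mouse chromosome 4, all on the minus strand (GRCm38, GENCODE M21): C1qb at chr4:136880129-136886187, C1qc at chr4:136889804-136893065 and C1qa at chr4:136895917-136898803. C3 lies at chr17:57203970-57228136, P2ry12 at chr3:59216272-59262871, Cx3cr1 at chr9:119901616-120069879, Tmem119 at chr5:113793729-113800516, Fcgr3 at chr1:171051174-171064935, all on the minus strand. Counts are summed over all exons of a gene, so they do not separate isoforms.

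Upstream sequence is shown for a pair of neighbouring C1q genes, whose levels moved together across libraries, and for P2ry12 and C3, the members with the largest differences between regions under saline. The windows are from RefSeq (GRCm38.p6), run 5′ to 3′ on the minus strand and end before the annotated gene: chr4:136886201-136886450 for C1qb, chr4:136893066-136893164 for C1qc, chr3:59262986-59263235 for P2ry12 and chr17:57228137-57228386 for C3. Capitals mark matches, on either strand, to AGGAAGT, a word of the kind bound by the myeloid factor PU.1 and other ETS factors, or to TTGCGNAA, a word of the kind bound by C/EBP factors.
C1qb: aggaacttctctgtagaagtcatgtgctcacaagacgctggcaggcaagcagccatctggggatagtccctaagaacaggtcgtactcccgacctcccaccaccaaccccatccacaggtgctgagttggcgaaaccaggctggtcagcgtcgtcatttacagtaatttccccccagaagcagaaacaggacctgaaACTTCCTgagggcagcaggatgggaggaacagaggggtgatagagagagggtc
C1qc: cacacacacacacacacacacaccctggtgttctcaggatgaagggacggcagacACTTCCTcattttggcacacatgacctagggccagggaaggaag
P2ry12: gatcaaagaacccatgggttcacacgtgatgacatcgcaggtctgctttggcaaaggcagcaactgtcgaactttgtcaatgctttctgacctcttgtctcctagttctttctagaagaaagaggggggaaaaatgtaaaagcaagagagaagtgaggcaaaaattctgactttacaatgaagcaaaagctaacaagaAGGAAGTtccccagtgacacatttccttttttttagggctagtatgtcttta
C3: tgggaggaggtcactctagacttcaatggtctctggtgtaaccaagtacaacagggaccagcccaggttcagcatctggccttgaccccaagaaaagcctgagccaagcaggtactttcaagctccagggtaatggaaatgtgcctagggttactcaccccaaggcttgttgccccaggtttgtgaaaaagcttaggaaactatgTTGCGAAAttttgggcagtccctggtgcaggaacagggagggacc
A total of 4 words of the PU.1 type were tried on the 6 members that have a window, and AGGAAGT was picked for marking after the matches had been seen. The C1qc window is printed only up to the annotated gene, which leaves 99 bases, while matches were counted in the whole 250 bases before the RefSeq start for every gene. Counted in this way, GAGGAAGT was found for 1 of the 6 members (C1qc) and in 2.44% of all 32851 windows of that length, and AGGAAGT for 3 (C1qb, C1qc and P2ry12) and in 7.69%. The shorter GGAAGT was found for the same 3 members and in 19.7% of windows, and GAGGAA for 3 (C1qb, C1qc and Fcgr3) and in 23.3%. These words overlap one another. TTGCGNAA, chosen after the C3 sequence had been read, was found for C3 alone among the 6 and in 0.67% of windows. A match is a description of letters, not a site.

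All 9 members had reads in all 52 libraries and passed the filter on low counts in every region. Per library, total counts ran from 2453412 to 8279612, with a median of 4654641.5, and the 9 members together held 313 to 1486 reads. C3 was the least covered member, with 3 to 59 reads per library. Compared per kb of exon over the 52 libraries, the mean level was highest for C1qa, at 21.6 ± 7.48 CPM per kb (CPM is a count scaled by library size; SD), followed by C1qb at 12.9 ± 3.99, Csf1r at 11.0 ± 2.06 and C1qc at 9.39 ± 2.74. P2ry12 stood at 5.82 ± 1.82, Cx3cr1 at 5.72 ± 1.64, Tmem119 at 3.21 ± 1.39, Fcgr3 at 3.10 ± 1.15 and C3 at 0.656 ± 0.472 CPM per kb. Neighbours in this order that differed by less than the SD of either were C1qb and Csf1r, Csf1r and C1qc, P2ry12 and Cx3cr1, and Tmem119 and Fcgr3.

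The regional labels could be checked against marker lists. Summed CPM of 10 hypothalamic genes ran from 114.8 to 1788 in hypothalamic libraries and reached at most 86.9 elsewhere, and summed CPM of 9 striatal genes ran from 1303 to 3050 in the nucleus accumbens and reached at most 508.1 elsewhere. The sum of 9 hippocampal genes ran from 556.3 to 1340 in the hippocampus and reached 840.3 in the nucleus accumbens, so these ranges overlapped. In 5 hypothalamic libraries, 3 of the low and 2 of the high rate, at least 1 hypothalamic peptide gene was below 1 CPM. A total of 10 libraries leaned towards GC-rich transcripts, meaning that their deviation from the mean of their region correlated with transcript GC content at a Spearman rho above 0.4. In the hypothalamus these were 3 of the 5 saline libraries and none of the insulin libraries. In the hippocampus they were 1 saline, 2 low-rate and 1 high-rate library, and in the nucleus accumbens 1 of each infusion. As for other macrophages and blood cells, 8 genes of perivascular macrophages summed to 1.48 to 17.6 CPM, 10 genes of blood leukocytes to 0 to 4.95 CPM and 5 genes of red blood cells to 3.71 to 83.3 CPM.

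**Figure D1:**
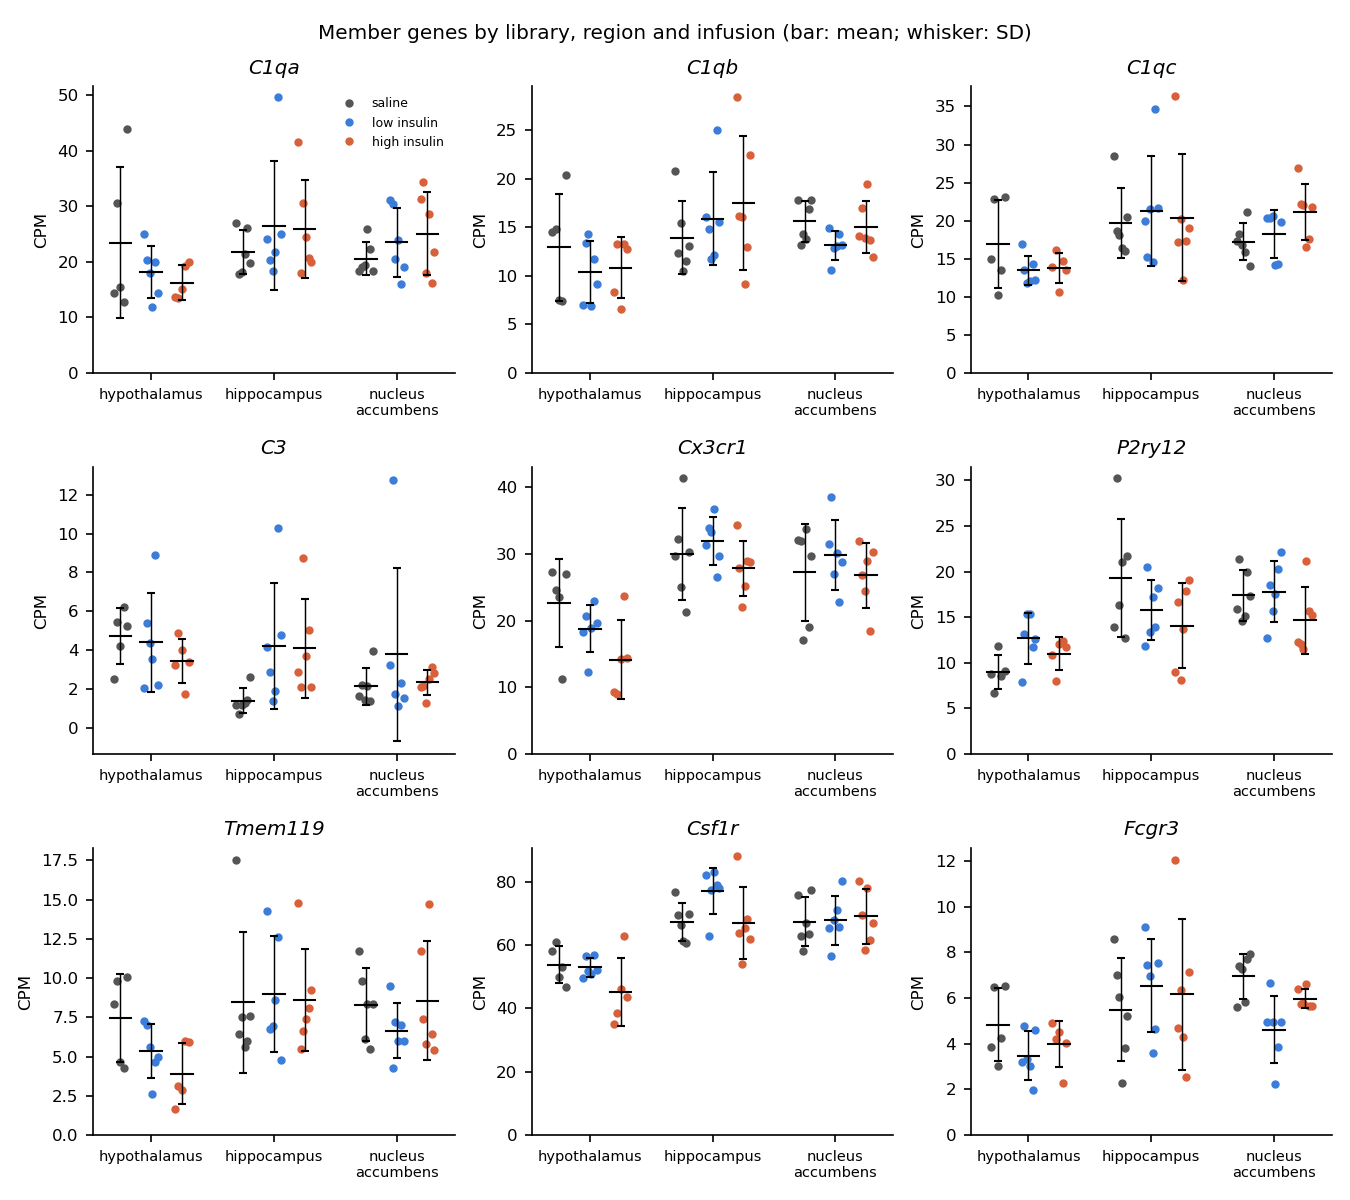
Level of each member (CPM, vertical axis from 0 except where an SD whisker reaches below it) in every library, by region and by infusion (grey saline, blue low rate, orange high rate), with the mean as a bar and the SD as a whisker. P2ry12 in the 5 hypothalamic saline libraries lies between 6.63 and 11.9 CPM, below the 6 hippocampal saline libraries, and single high libraries stand out for C3 and the C1q chains.

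Under saline, the hypothalamus held less P2ry12 and slightly less Csf1r than the hippocampus, and more C3. P2ry12 was at 8.72, 6.63, 11.9, 8.54 and 9.05 CPM in the hypothalamic libraries. In the hippocampus its lowest, median and highest values were 12.7, 18.7 and 30.3 CPM. Every hypothalamic library was thus below every hippocampal one, which held for 12.9% of the 14985 genes tested. The fitted log2 difference, hypothalamus minus hippocampus, was -1.12 (SE 0.21, adjusted p = 1.69e-05, edgeR quasi-likelihood test). P2ry12 has the lowest GC content of the 9 transcripts, 38.6%, and with the GC lean of each library as a covariate the difference was -0.82 (adjusted p = 1.36e-05). The lean is measured from the mean of each library's own region. This covariate therefore cannot take out a GC shift shared by all libraries of a region.

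C3 was at 2.52, 5.44, 4.22, 6.21 and 5.26 CPM in the hypothalamic saline libraries. In the hippocampal saline libraries its lowest, median and highest values were 0.738, 1.26 and 2.61 CPM. The groups overlapped only in the highest hippocampal and the lowest hypothalamic library. The log2 difference was 1.68 (SE 0.50, adjusted p = 0.00514), from means of 4.73 ± 1.43 (SD, n = 5) and 1.42 ± 0.63 CPM (SD, n = 6; edgeR). Csf1r was at 58.1, 61.0, 49.8, 53.2 and 46.7 CPM in the hypothalamus, and from 60.6 to 76.8 CPM, with a median of 68.0, in the hippocampus. The highest hypothalamic library lay above the lowest hippocampal one, so the ranges overlapped. The log2 difference was -0.33 (SE 0.12, adjusted p = 0.0174). This call was lost without 1 GC-leaning library of either region, with adjusted p = 0.0545 without the fifth hypothalamic and 0.0516 without the first hippocampal saline library.

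Thus 3 of the 9 members differed between hypothalamus and hippocampus under saline, 1 higher and 2 lower, beside 46% of all genes tested (24.4% higher and 21.6% lower). The other 6 members had log2 differences between -0.39 (Cx3cr1, adjusted p = 0.112) and 0.12 (C1qa, adjusted p = 0.738). The members' median was -0.20 and that of all genes tested 0.06. The share of members called was below the share of all genes, so the count alone sets the members apart in no direction.

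The nucleus accumbens was compared with the other regions in the same fit, so the contrasts share libraries. Against the hypothalamus under saline, P2ry12 was higher, with a log2 difference of 0.95 (SE 0.21, adjusted p = 0.000511), as was Csf1r, with 0.32 (SE 0.12, adjusted p = 0.0318), 2 members of 9 beside 32.1% of all genes. The Csf1r call held in 7 of the 11 edgeR fits that left out 1 library, with an adjusted p of up to 0.103. P2ry12 ran from 14.5 to 21.4 CPM in the 6 accumbens libraries, all above the hypothalamic ones, as did 8.01% of genes tested. Without the GC-leaning libraries, which leaves 2 hypothalamic saline libraries, the P2ry12 difference was 0.74 (adjusted p = 0.082). C3 was lower in the accumbens by 1.12 (log2 difference -1.12, SE 0.47), but did not pass the test (adjusted p = 0.0579). Against the hippocampus, none of the 9 members was called in the accumbens by edgeR, DESeq2 or limma-voom, none had an unadjusted p under 0.05, and 29.2% of all genes were called. The 95% interval of the difference was narrowest for Csf1r, -0.24 to 0.21, and widest for C3, -0.50 to 1.61.

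**Figure D2:**
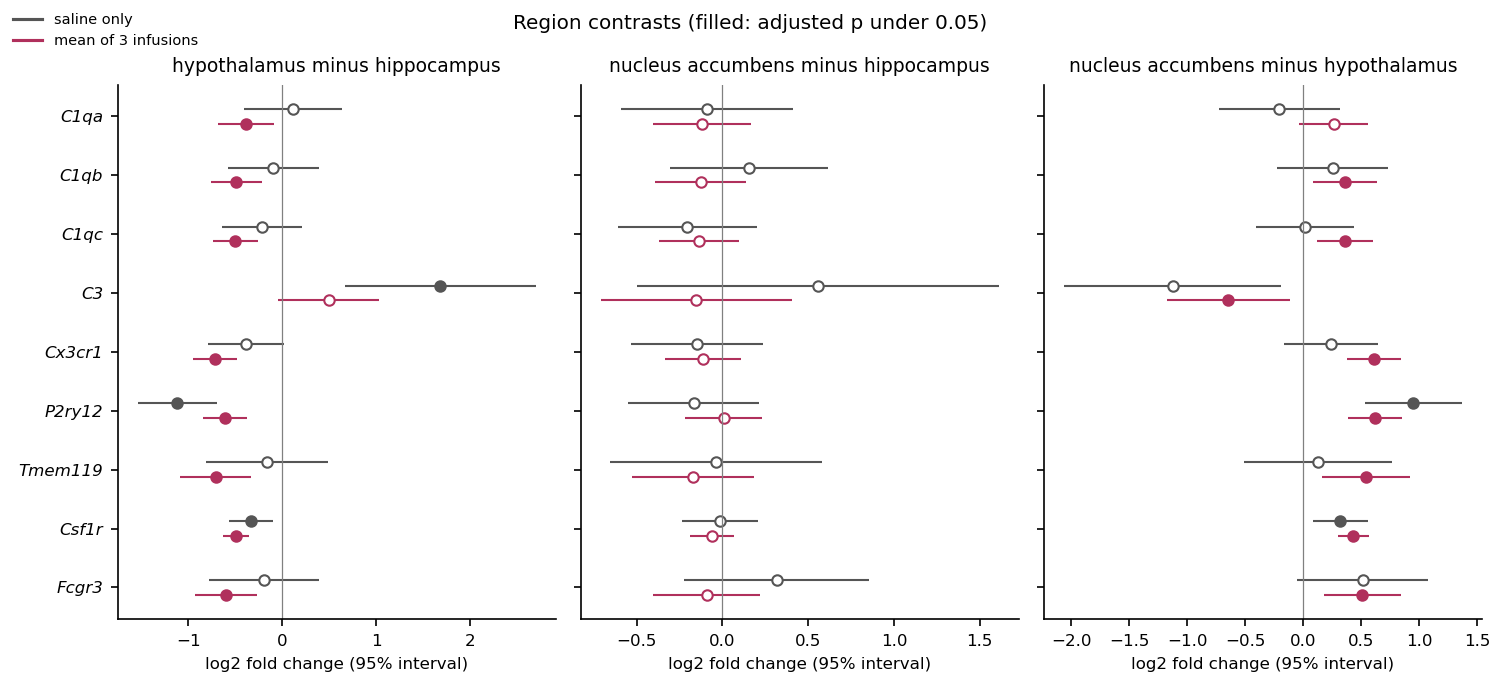
Log2 fold change of each member between pairs of regions (horizontal axis, with 95% intervals), for saline libraries alone (grey) and for the mean of the 3 infusions (red); filled points have an adjusted p under 0.05. In the left panel the red points of 8 members lie below 0, from -0.38 for C1qa to -0.72 for Cx3cr1, while C3 lies above 0.

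When the 3 infusions were averaged within each region, which uses all 52 libraries, 8 members were lower in the hypothalamus than in the hippocampus, and C3 was the exception. This was called for 8 of 9 members, all lower, beside 29.6% of genes called lower and 59.4% called in either direction. Cx3cr1 differed most, by -0.72 (SE 0.12, adjusted p = 4.7e-07), with means of 18.6 ± 6.13 (SD, n = 16) and 29.9 ± 5.05 CPM (SD, n = 18; edgeR). Tmem119 differed by -0.71 (SE 0.19, adjusted p = 0.00105) and P2ry12 by -0.61 (SE 0.12, adjusted p = 1.24e-05). Csf1r, the most precisely measured member, differed by -0.49 (SE 0.07, adjusted p = 8.28e-09), from 50.9 ± 7.64 to 70.5 ± 9.39 CPM. The receptor gene Fcgr3 differed by -0.60, C1qc by -0.50, C1qb by -0.49 and C1qa by -0.38, each with an SE of 0.12 to 0.17 and an adjusted p of 0.0239 or less. The C1qa call was lost without 1 of 2 hippocampal libraries with high C1qa, namely the fifth low-rate library (-0.29, adjusted p = 0.0683) or the first high-rate library (-0.32, adjusted p = 0.055). The median over the members was -0.50, beside 0.01 over all genes tested.

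Against the same hypothalamic libraries, the nucleus accumbens was higher for 7 members, beside 19.9% of genes called higher and 41.9% called in either direction. These were P2ry12 by 0.62, Cx3cr1 by 0.61, Tmem119 by 0.54, Fcgr3 by 0.51, Csf1r by 0.43, C1qc and C1qb by 0.36, with adjusted p-values from 4.51e-07 (Csf1r) to 0.0291 (C1qb). C1qa was not called (0.26, adjusted p = 0.157). C3 was lower by 0.65 (log2 difference -0.65, adjusted p = 0.0431), beside 22% of genes called lower, and this call was lost when any 1 of 22 of the 34 libraries was left out. The accumbens and the hippocampus differed in none of the 9 members by edgeR, none with an unadjusted p under 0.05, beside 48% of genes, with 95% intervals within -0.53 and 0.23 for all members other than C3 (-0.71 to 0.40).

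Other genes that mark microglia moved in the same direction. Of 28 listed, 26 were tested and 18 were lower in the hypothalamus than in the hippocampus over the 3 infusions, with 0 higher, a median of -0.53, beside 29.6% of all genes called lower and a median of 0.01. The largest differences among those with a mean of at least 1 CPM were in P2ry6, a nucleotide receptor tied to phagocytosis (-1.54, adjusted p = 1.03e-09), Ltc4s, an enzyme of leukotriene synthesis (-1.08, adjusted p = 0.00632), Fcrls, an Fc receptor-like microglial gene (-0.99, adjusted p = 2.26e-07), and Irf8, a myeloid transcription factor (-0.72, adjusted p = 0.000689). Trem2, a lipid-sensing receptor, was lower by 0.41 (log2 difference -0.41, adjusted p = 0.0336). Tyrobp, the signalling partner of Trem2, had -0.53 (adjusted p = 0.0595), and Sall1, a transcription factor of microglial identity, had 0.00 (adjusted p = 0.994). Aif1, which encodes IBA1, was not tested, because its mean was low, at 0.645 CPM (hypothalamus) and 0.791 CPM (hippocampus). Under saline alone, 9 of the 26 were lower and 0 higher, beside 21.6% of all genes called lower. The accumbens was higher than the hypothalamus for 16 of the 26 and lower for 0. Of all genes, 14.7% were called higher in that comparison under saline and 19.9% over the 3 infusions.

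Among the 6 ligands and receptors that maintain microglia, Cx3cl1, the ligand of Cx3cr1, was lower in the hypothalamus than in the hippocampus by 1.27 (log2 difference -1.27, adjusted p = 4.1e-16), with means of 187.6 ± 42.8 (SD, n = 16) and 445.3 ± 77.5 CPM (SD, n = 18; edgeR). Il34, a ligand of the Csf1r product, had a difference of -0.55 (adjusted p = 0.000617), and Tgfbr2, a receptor for TGF-beta, -0.45 (adjusted p = 0.00024). Csf1, the other Csf1r ligand, had 0.03 (adjusted p = 0.696). In the accumbens, Cx3cl1 was higher than in the hypothalamus by 0.95 and Il34 by 0.73, while Csf1 was lower (-0.58, adjusted p = 9.59e-10).

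Complement genes beyond the members did not share 1 direction. Of 23 listed components, 6 were tested between hypothalamus and hippocampus: C2, a classical pathway protease, was higher in the hypothalamus (1.42, adjusted p = 1.02e-07) and C4b, which encodes a form of C4, the partner of C2 in the classical C3 convertase, lower (-0.26, adjusted p = 0.013). C4b and C4a are near-identical copies, so the split of their reads is uncertain. Of 18 tested regulators and complement receptors, 3 were higher and 9 lower, beside 59.4% of all genes called in either direction. Among them were Cd59a, an inhibitor of the membrane attack complex (0.73, adjusted p = 0.000268), Csmd3 (0.68, adjusted p = 0.000439), C5ar1, the receptor for C5a (-0.76, adjusted p = 0.00355), and Sez6, a neuronal sushi-domain protein (-0.97, adjusted p = 7.73e-09). Fcgr2b, the inhibitory antibody receptor, was higher in the hypothalamus (0.56, adjusted p = 0.00216), against the direction of Fcgr3. These 2 receptors share sequence, and how shared reads were counted is not given in the sources used here. In the list of activation genes and cytokines, 2 of 13 were higher and 7 lower, beside the same 59.4% of all genes. The largest differences were in Ptgs2 (-4.93), Lpl (-2.98), Gpnmb (-2.79) and Tlr2 (1.28). Ptgs2 and Lpl are also expressed by neurons.

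The regions differed in other cell types too. Summed CPM of 8 neuronal genes ran from 3862 to 5935 in the hypothalamus, 5589 to 7731 in the hippocampus and 4774 to 6710 in the accumbens. For 8 endothelial genes the sums ran from 445.5 to 687.6, 307 to 693.2 and 281.8 to 595.3 CPM, and for 8 astrocyte genes from 2458 to 4596, 3407 to 7047 and 3349 to 6890 CPM. The part of these differences in the members' levels was not tested.

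The question of the infusions was whether the members changed with insulin. In the hypothalamus, hippocampus and nucleus accumbens, none of the 9 members was called in any of the 9 infusion contrasts by edgeR, DESeq2 or limma-voom. At an unadjusted p under 0.05 the hypothalamus had 1 member for the low rate and 2 for the high rate against saline. The hippocampus had 1 for each rate, the accumbens 1 for the low rate, and no region any between the rates. The share of all genes at that unadjusted threshold is not given here, so these counts show no excess of members. At an adjusted p under 0.05, 5.38% of 14139 genes were called for the low rate against saline in the hypothalamus and 0.184% for the high rate. Between the rates there, and in any contrast of the other 2 regions, 0% of genes were called. In the hypothalamus, the leaning libraries were all saline and those with a peptide gene below 1 CPM all insulin. The part of this in the shares called was not tested. Both insulin groups are compared with the same saline libraries.

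In the hypothalamus, 8 of 9 members had a log2 difference below 0 at each rate, with medians of -0.32 (low) and -0.30 (high) beside -0.02 and -0.03 for all genes tested. With the GC lean as a covariate, 3 of 9 members were below 0 at the low rate (median 0.085) and 7 at the high rate (median -0.067). Without the leaning libraries, which leaves 2 saline libraries, 2 were below 0 at the low rate (median 0.21) and 4 at the high rate (median 0.072). The tally of members below 0 thus varied with how the lean was handled, though at the high rate only from 8 to 7 with the covariate. Leaving out the leaning libraries removes most of the saline group. The part of the lean in the tally was not tested. Tmem119 was at 8.33, 9.81, 4.67, 4.27 and 10.1 CPM under saline. At the high rate it was at 1.63, 3.09, 2.90, 6.01 and 5.95 CPM. The groups overlapped, and the 3 highest saline libraries are those that lean to GC. The log2 difference was -0.94 (SE 0.35, adjusted p = 0.149), and -0.22 (adjusted p = 0.998) with the lean as a covariate. Cx3cr1 was at 27.3, 24.5, 23.5, 11.3 and 26.9 CPM under saline and at 9.24, 9.06, 14.3, 23.7 and 14.4 CPM at the high rate. A total of 3 high-rate libraries lay within the saline range, and the difference was -0.69 (SE 0.25, adjusted p = 0.149), or -0.84 (adjusted p = 0.0323) without the low saline library.

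P2ry12 was the only member above 0 in the fit without a covariate, at 0.52 for the low rate (SE 0.19, adjusted p = 0.0881) and 0.30 for the high rate (SE 0.19, adjusted p = 0.323). Its low-rate values ran from 7.86 to 15.4 CPM, with a median of 12.9, and overlapped those under saline. It passed the test when the first low-rate library (0.59, adjusted p = 0.036) or the third saline library (0.65, adjusted p = 0.0322) was left out, and with Ttr as a covariate (0.53, adjusted p = 0.0493). With the GC lean as a covariate the difference was 0.19 (adjusted p = 0.772). C1qa differed by -0.37 and -0.53 at the low and high rates, C1qb by -0.32 and -0.27 and C1qc by -0.33 and -0.30, with adjusted p-values from 0.258 to 0.562. Of the listed activation genes and cytokines, 1 of 9 tested was called at the low rate, beside 5.38% of all genes. This was Ptgs2, higher by 1.93 (SE 0.51, adjusted p = 0.0402, edgeR), with a mean of 2.70 CPM. At the high rate no gene of the 6 lists was called by edgeR.

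**Figure D3:**
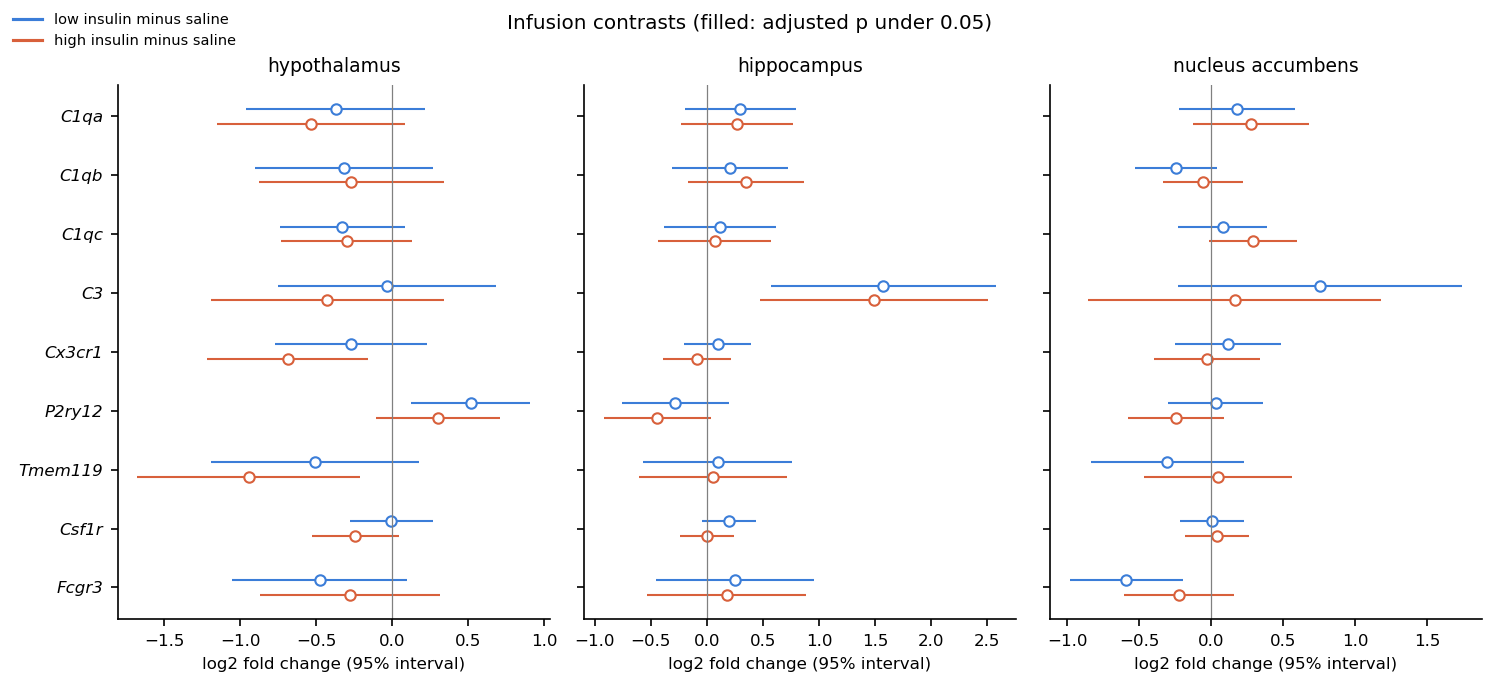
Log2 fold change of each member against saline (horizontal axis, with 95% intervals) in each region, at the low (blue) and high (orange) insulin rate; open points did not pass an adjusted p of 0.05. No point is filled, P2ry12 alone lies above 0 in the hypothalamus, and C3 lies far to the right in the hippocampus with wide intervals.

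The GC lean of a library moved with several members, as the plot of member levels against lean shows. The lean is itself computed from how transcripts deviate by GC content, the members among them. A fall of P2ry12 (38.6% GC) with the lean therefore follows in part from its definition. The same holds for a rise of C1qc (57.5%) and Tmem119 (59.1%). The permutations did not keep infusion groups apart, and in the hypothalamus only saline libraries leaned. Of 27 correlations of a member's log2 CPM with the lean within a region, 9 had an adjusted permutation p under 0.05, 6 positive and 3 negative (p from 100000 permutations, adjusted over the 27). The negative ones were those of P2ry12: in the hypothalamus r = -0.80 (adjusted p = 0.00335) and rho = -0.69 (adjusted p = 0.02, n = 16), in the hippocampus r = -0.73 (adjusted p = 0.00335) and rho = -0.72 (adjusted p = 0.0081, n = 18), and in the accumbens r = -0.65 (adjusted p = 0.0135) and rho = -0.54 (adjusted p = 0.0643, n = 18). Without the 2 libraries farthest from the median lean, r was -0.72, -0.70 and -0.52. In the hypothalamus, Tmem119 had r = 0.78 (adjusted p = 0.00335) and rho = 0.80 (adjusted p = 0.0081), and C1qc r = 0.77 and rho = 0.77 with the same adjusted p-values, and without the 2 farthest libraries r was 0.71 and 0.76. The tag numbers in the titles fall into 3 ranges. In the accumbens, within the highest range, r for P2ry12 was 0.03 (9 libraries) and within the middle range -0.83 (6 libraries). In the hypothalamus the highest range gave -0.69 for P2ry12, 0.97 for Tmem119 and 0.81 for C1qc (9 libraries), and the other ranges held too few libraries.

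**Figure D4:**
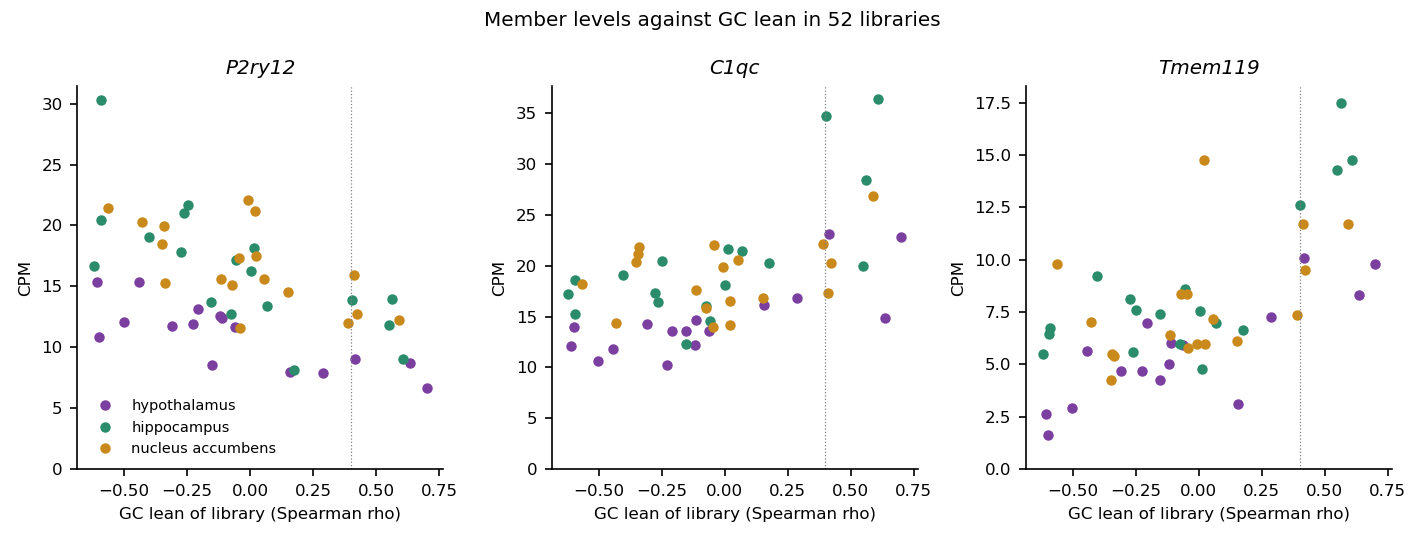
Level (CPM, vertical axis from 0) of P2ry12, C1qc and Tmem119 against the GC lean of each library (horizontal axis, Spearman rho over genes), coloured by region, with a dotted line at 0.4. P2ry12 falls and C1qc and Tmem119 rise towards the right, where the 10 leaning libraries lie.

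In the hippocampus, C3 had the largest difference of any member. Under saline its values were 1.19, 0.738, 1.21, 1.31, 1.44 and 2.61 CPM, at the low rate 4.19, 2.87, 1.40, 1.91, 10.3 and 4.77 CPM, and at the high rate 2.88, 2.09, 8.76, 3.71, 5.05 and 2.10 CPM. Most insulin libraries were above the saline ones, and 2 libraries of each insulin group lay below the highest saline one. The difference was 1.58 at the low rate (SE 0.48, adjusted p = 0.403) and 1.49 at the high rate (SE 0.49, adjusted p = 1), and neither was called. The other 8 members lay between -0.28 and 0.30 at the low rate and between -0.44 and 0.35 at the high rate.

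The C3 values followed those of Ttr, a gene of the choroid plexus, an epithelium-covered tissue inside the ventricle beside the hippocampus. Over the 18 hippocampal libraries r was 0.76 on log2 values (permutation p = 0.00019, adjusted p = 0.00057 over 3 regions) and rho 0.75 (permutation p = 0.00052, adjusted p = 0.00156), and r was 0.78 without the 2 libraries farthest from the median Ttr. The permutations did not keep infusion groups apart, and both genes differed between these groups. In the hippocampus, medians under saline, low and high rate were 66.5, 2050 and 477 CPM for Ttr and 1.26, 3.53 and 3.30 CPM for C3. Within tag ranges r was 0.86 (6 libraries) and 0.70 (9 libraries), and the remaining range held 3. In the hypothalamus r was -0.27 (permutation p = 0.309, n = 16) and rho -0.18 (permutation p = 0.5). In the accumbens r was 0.34 (permutation p = 0.167, n = 18) and rho 0.50 (permutation p = 0.0359, adjusted p = 0.0539). Within tag ranges of the accumbens r was 0.57 (6 libraries) and 0.77 (9 libraries). Summed CPM of 10 choroid plexus genes had a lowest, median and highest value of 68.8, 138.7 and 1532 under saline, 98.1, 2426 and 6410 at the low rate, and 63.5, 629.8 and 2821 at the high rate, while it stayed between 36.5 and 64.8 in the hypothalamus and between 40.1 and 74.8 in the accumbens. With Ttr as a covariate the C3 difference was 0.86 at the low rate and 1.04 at the high rate, both with an adjusted p of 1. Under the same covariate the saline difference between hypothalamus and hippocampus was 2.43 (adjusted p = 0.000123) and that between accumbens and hippocampus 1.59 (adjusted p = 0.0376), against 0.56 (adjusted p = 0.485) without it. Under saline, Ttr ran from 16.9 to 1260 CPM in the hippocampus. It reached at most 27.4 CPM in the hypothalamus and 17.8 CPM in the accumbens. The covariate has 1 slope for all regions, so these adjusted differences refer to a Ttr level that the regions hardly share.

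**Figure D5:**
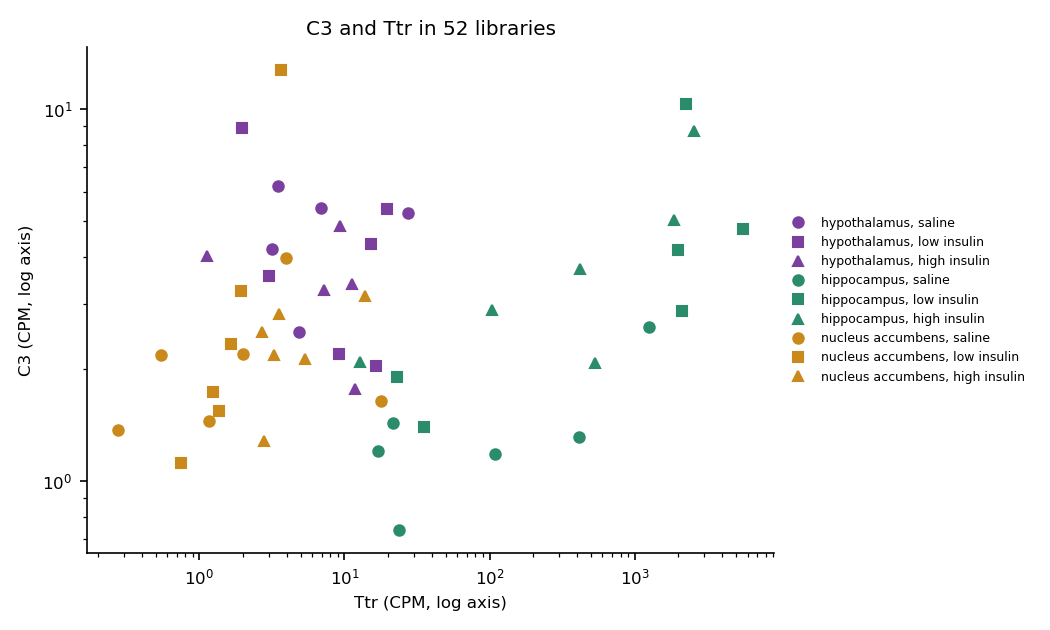
C3 against Ttr in the 52 libraries (both in CPM on log axes), coloured by region, with the infusion as the symbol. Hippocampal libraries spread over Ttr from 12.8 to 5590 CPM, and the 7 farthest to the right hold C3 between 2.61 and 10.3 CPM.

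In the nucleus accumbens, C3 had a log2 difference of 0.76 at the low rate (SE 0.48, adjusted p = 1). One library of 6 was at 12.7 CPM, and the other 5 lay between 1.12 and 3.24 CPM. Fcgr3 had the smallest unadjusted p of the accumbens contrasts, with -0.59 at the low rate (adjusted p = 1), from 6.96 ± 0.99 to 4.61 ± 1.47 CPM (SD, n = 6 each; edgeR). The remaining 7 members had log2 differences between -0.30 and 0.29 at either rate.

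Whether an insulin difference varied between regions was tested as an interaction of region and infusion. Of 54 such tests of the members, 0 were called by edgeR, beside 0% of all genes, and the smallest adjusted p was 0.13. An unadjusted p under 0.05 was found in 12 of the 54, which share libraries. The share of all genes at that unadjusted threshold is not given here, so the 12 show no excess of members. For the low rate in the hypothalamus relative to the hippocampus, C3 had an estimate of -1.63 (SE 0.66, adjusted p = 0.148) and P2ry12, which had the smallest adjusted p, one of 0.78 (SE 0.28, adjusted p = 0.13).

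After group means were subtracted, 15 of 36 pairs of members were correlated across the 52 libraries at an adjusted permutation p under 0.05, 13 of them positively. The C1q chains moved together, C1qa with C1qc at r = 0.63 (rho = 0.53, adjusted p = 0.00018 and 0.0012), C1qb with C1qc at r = 0.59 (rho = 0.44, adjusted p = 0.00018 and 0.00813) and C1qa with C1qb at r = 0.50 (rho = 0.39, adjusted p = 0.00138 and 0.0177), and without the 2 farthest libraries r was 0.54, 0.49 and 0.38. In the same order, r was 0.317, 0.345 and 0.263 without the GC-leaning libraries, and 0.451, 0.436 and 0.317 with the lean taken out. Part of the shared movement thus went with the lean. Within the 3 ranges of tag number, r for C1qb with C1qc was 0.48, -0.14 and 0.71, so the relation was absent in the middle range of 16 libraries. P2ry12 ran against C1qc (r = -0.47, rho = -0.43, adjusted p = 0.00184 and 0.00813) and C1qa (r = -0.42, rho = -0.43, adjusted p = 0.007 and 0.00813), and without the 2 farthest libraries r was -0.42 and -0.48. When the GC lean was taken out, r of P2ry12 was -0.057 with C1qc and 0.0025 with C1qa, so these opposite movements were no longer seen. P2ry12 then correlated positively with Csf1r (r = 0.56) and Tmem119 (r = 0.51). These values are given as a description.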

How the data were processed

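RNA libraries of 3 mouse brain regions were prepared with a directional Wafergen kit, per the labels' protocols. The authors deposited 1 table of raw read counts, with a row for each Ensembl identifier and no normalization. Tools named in the submitters' processing notes are featureCounts and STAR, with the build GRCm38.p4; for versions, strand setting and annotation the entry is: not given in the sources used here. Names, exon lengths and GC content came from GENCODE M21, which lacked 842 of 46071 identifiers. No molecular identifiers are named in the labels, so counts may include PCR copies.

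The infusions were compared region by region with edgeR 4.0.16 in R 4.3.3 (TMM, filterByExpr, robust quasi-likelihood, 2-sided tests); regions and interactions were compared in 1 fit of 52 libraries, which takes them as independent although regions may share mice. P-values were adjusted across every gene of a fit by the Benjamini-Hochberg method and called under 0.05. CPM are TMM-scaled, and log2 CPM use a prior count of 2. No 2 libraries of a group agreed within sampling noise (lowest chi-square per gene 3.46 over 125 pairs). The scripts were tested on simulated data.

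The members and lists were chosen with earlier results of these data known. Named were the 9 members; per list and comparison up to 4 called genes of largest change with a mean of at least 1 CPM, or the 2 of smallest p; and Csf1, Il34, Cx3cl1, Trem2, Tyrobp, Aif1 and C4b; a further rule named the genes most correlated with the members. Part of these are printed, and 1 gene that the rule names is not reported here. Alternatives were DESeq2 1.42.0, limma-voom (limma 3.58.1), DESeq2 size factors, no filter, tag range, Ttr or GC lean as covariates, fewer libraries, and leaving out each library.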

Additional observations from a re-analysis of the deposited data

Results flagged for a closer look

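Of 81 sets of values (9 members in 9 groups), 11 held a library whose gap to its nearest neighbour was large for a group of that size, where chance gives about 1 in 20. Of these, 3 belong to the same hippocampal low-rate library, the fifth, which had the highest C1qa (49.7 CPM, next 24.9), C1qb (25 CPM, next 16) and C1qc (34.7 CPM, next 21.6) and a GC lean of 0.403. The first hippocampal saline library, with a lean of 0.562, stood high for C1qc (28.5 CPM, next 20.4) and Tmem119 (17.5 CPM, next 7.62), and the first high-rate library, with a lean of 0.608, for C1qc (36.4 CPM, next 20.2). The part of the lean in these values was not tested. C3 stood high in 1 hippocampal saline library (2.61 CPM, next 1.44), in which Ttr was at 1260 CPM. It also stood high in 1 accumbens saline library (3.97 CPM, next 2.2) and in 1 accumbens low-rate library (12.7 CPM, next 3.24), where Ttr was at 3.97 and 3.64 CPM. Cx3cr1 was low in the fourth hypothalamic saline library (11.3 CPM, next 23.5), and Csf1r was low in the second hippocampal low-rate library (62.9 CPM, next 77.6).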

How the results depend on the processing

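The infusion contrasts had 0 called members under every whole-fit alternative run other than the Ttr covariate, with which P2ry12 was called for the low rate in the hypothalamus (1 member). Leaving out 1 library gave 0 to 1 called member for the low rate there (P2ry12, without low-rate library 1 or saline library 3) and 0 to 1 for the high rate (Cx3cr1, without saline library 4). Under saline, hypothalamus minus hippocampus gave 2 to 3 called members when 1 library was left out. Averaged over the 3 infusions, which is another contrast, it gave 8. Accumbens minus hippocampus under saline gave 1 (C3) with Ttr, and 1 with the GC lean and Ttr together, a pair chosen after seeing the data. Both rest on 1 Ttr slope for regions whose Ttr levels hardly overlap. Accumbens minus hypothalamus under saline gave 1 without a filter on low counts, 1 without the GC-leaning libraries, and 1 to 3 when 1 library was left out. Averaged over the 3 infusions it gave 8.

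Some differences that were not called changed sign. Among those for the low rate in the hypothalamus, Tmem119 was 0.24 and C1qa 0.087 with the GC lean as a covariate, and Tmem119 was 0.23, Cx3cr1 0.068 and C1qa 0.34 without leaning libraries. Among those for the high rate, P2ry12 was -0.0086 with the lean and C1qa 0.18 without leaning libraries. For hypothalamus minus hippocampus under saline, C1qa was -0.19 with the lean, -0.52 without leaning libraries and -0.084 with the lean and Ttr. It ran from -0.23 to 0.25 when 1 library was left out, below 0 without hypothalamic library 2 (-0.0039) or 5. C1qb there ran from -0.31 to 0.064 when 1 library was left out, above 0 without hippocampal library 1 or hypothalamic library 3 (0.048) or 4 (0.021). Averaged over the 3 infusions, which is another contrast, C1qa was -0.38. Over all infusion values, 20 of 81 changed sign with the lean and 16 of 81 without leaning libraries. The cause was not tested. C3 rests on 3 to 59 reads per library, which limits its precision. No paired analysis was possible because the labels do not say that any number in the titles marks libraries of the same mouse or batch.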

Other observations

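Within groups, over 52 libraries and 15154 genes, the genes whose log2 CPM followed the mean of the 8 members other than C3 most closely were Rnf5 (r = 0.81), Pllp, Adh5, Wbp1, Rps3, Enho, Rplp0, Cavin3, Rpsa and Acot7 (r = 0.77), none of which is on the list of other microglial genes. With the GC lean taken out, Rnf5 still ranked first (r = 0.73) and Hbb-bs, a haemoglobin gene, was among the first 10 (r = 0.70). The genes that followed C3 were Sdc1 (r = 0.60), Lbp, Gc, Hfe, Tmem232, Wdr63, Zic4, Nek5, Mdm1 and Cfap161 (r = 0.52). These values describe the same libraries and carry no test.

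Genes of other brain macrophages, chosen after their values were seen, differed between regions in opposite directions over the 3 infusions. Cd163, a haemoglobin scavenger receptor of perivascular macrophages, was higher in the accumbens than in the hypothalamus with a log2 difference of 1.46 (SE 0.24, adjusted p = 2.44e-06, edgeR), from 1.62 ± 0.98 to 4.42 ± 2.22 CPM. Lyve1, a hyaluronan receptor of the same cells, was lower there by 1.30 (log2 difference -1.30, SE 0.33, adjusted p = 0.00122), and Mrc1, the mannose receptor, had a difference of 0.17 (adjusted p = 0.689).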
